A study of Bombus terrestris audax with 20 samples.

Results

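Digestive protease genes of the bumble bee larva were followed through caste development. The set held 5 genes among the 14817 features of the expression table: chymotrypsin-2-like (LOC105665851, table row NC_015767.1_10624627_10627639), a target gene of the study, and the features whose product name began with chymotrypsin-1-like, trypsin 3A1-like, carboxypeptidase B-like or aminopeptidase N in a supplementary sheet of genes differing between early queen- and worker-destined larvae. Each of these names matched 1 feature: chymotrypsin-1-like LOC100648122, trypsin 3A1-like LOC100650130, carboxypeptidase B-like LOC100644223 and aminopeptidase N LOC100642906. All 5 genes passed the authors' filter on low values and entered every fit.

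Bumble bee larvae are fed pollen and nectar by workers, and the protein of pollen is broken down in the midgut by secreted peptidases. Chymotrypsins and trypsins are serine endopeptidases that cut inside protein chains, chymotrypsins next to large hydrophobic residues and trypsins next to basic ones. Carboxypeptidase B then removes basic residues from the C-terminal end of the fragments, and aminopeptidase N, a zinc enzyme anchored in the gut membrane of insects, removes residues from the N-terminal end. The suffix "-like" marks names given by sequence similarity, and serine peptidases of this family also act outside the gut, so digestion is the known role of the families and was not measured.

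The data were mRNA-seq abundances of 17 libraries from pooled whole bodies of female Bombus terrestris audax larvae. Queen-destined larvae were taken at the early stage (EQ, the first and second instars together), the mid stage (MQ, the third instar) and the late stage (LQ, the fourth instar), and worker-destined larvae at the same stages (EW, MW and LW). There were 3 libraries of every phenotype except MW, which had 2, and each library held larvae of 1 colony. The 9 queen-destined libraries came from 4 colonies whose queen had been removed and the 8 worker-destined libraries from 3 colonies that kept their queen, so caste, queen removal and colony cannot be told apart. Libraries of 1 phenotype came from different colonies, and libraries with the same number within a caste from the same colony. Values were read counts corrected for gene length and quantile-normalised by the authors, and are called normalised abundances. The length was taken here to be the genomic span, because the study's sheet lists that span as the length of 597 of its 597 named features. Within a phenotype the libraries correlated over all features with r from 0.952 to 0.990. In whole bodies, a smaller midgut and less RNA per gut cell cannot be told apart.

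The 5 genes lay on 5 different sequences of the Bter_1.0 genome. Chymotrypsin-2-like spanned 3013 bp (NC_015767.1:10624627-10627639, plus strand), chymotrypsin-1-like 1981 bp (NC_015763.1:569329-571309, minus strand) and trypsin 3A1-like 1767 bp (NC_015776.1:2802501-2804267, minus strand). Carboxypeptidase B-like spanned 6376 bp (NC_015774.1:2590748-2597123, minus strand) and aminopeptidase N 26194 bp (NW_003565424.1:64136-90329, plus strand).

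The study measured chymotrypsin-2-like a second time by quantitative PCR, and its primers are shown because they mark where in the transcript the gene was assayed. Capitals in the forward primer mark a match to the active-site serine motif of the chymotrypsin family, written as codons for glycine, an acidic residue, any residue, glycine, glycine and proline in any of their codons, and searched on both strands.

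chymotrypsin-2-like forward primer: tGGTGATTCCGGTGGTCCTt
chymotrypsin-2-like reverse primer: tcgcgtgtagaccgatggata

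The match covered positions 2 to 19 of the 20 bases, counted from the 5′ end, and the reverse primer of 21 bases held none. Of the 48 primers listed for the study's genes, 1 (2.08%) held this motif. The forward primer thus lay on a stretch that serine peptidases share; the PCR values themselves are not used here.

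The genes fell into 3 tiers of abundance per length. Their spans ran from 1767 to 26194 bp, so these tiers are not an order of read counts. Chymotrypsin-1-like and trypsin 3A1-like were both above chymotrypsin-2-like in 17 of 17 libraries, and chymotrypsin-2-like was above both exopeptidases in 17 of 17. Aminopeptidase N was above carboxypeptidase B-like in 15 of 17 libraries. This order was the same at every stage and in both castes for the 3 tiers, although chymotrypsin-2-like came much closer to the upper tier in LQ.

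**Figure D1:**
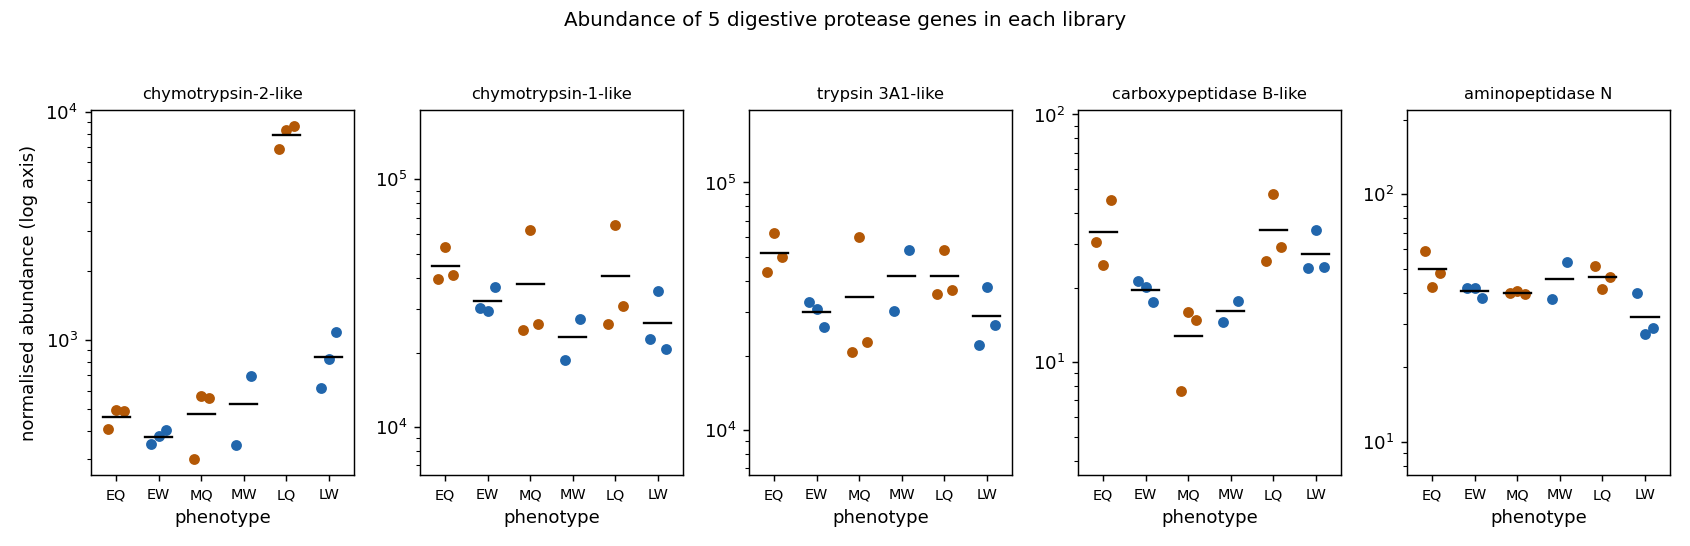
Normalised abundance (log axis) of each gene by phenotype: points are libraries, orange queen-destined and blue worker-destined, and bars are phenotype means; every panel's axis spans at least a 30-fold range. The 3 LQ libraries of chymotrypsin-2-like, from 6843 to 8626, stand above all other libraries, of which the highest is 1083, while the other genes show overlapping castes at the mid stage.

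Chymotrypsin-2-like, a serine endopeptidase, rose between MQ and LQ. Its abundance was 406, 492 and 487 in EQ1 to EQ3 and 302, 567 and 559 in MQ1, MQ2 and MQ4. In LQ1, LQ2 and LQ4 it was 6843, 8269 and 8626. The LQ values were far above the MQ values and did not overlap them, whereas EQ and MQ overlapped. In worker-destined larvae it was 350, 381 and 402 in EW1 to EW3, 349 and 696 in MW2 and MW3, and 618, 826 and 1083 in LW1 to LW3. All LW libraries were above all EW libraries, but LW overlapped MW, and no worker-destined library reached the level of the lowest LQ library, which was 6.32 times the highest other library.

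Between MQ and LQ chymotrypsin-2-like rose by 4.04 ± 0.27 (SE) on the log2(abundance + 20) scale, a 16.5-fold rise (limma, adjusted p = 4.88e-07). The LQ libraries are also those in which the study chose the gene as higher than in LW, so this p is not independent evidence of its level in LQ. Of all features, 33 had a larger difference in this comparison. Its position in the abundance order moved from between 3850 and 2151 in MQ to between 193 and 158 in LQ, counted from the most abundant feature. The rise held in every alternative, from 3.76 to 4.19. The difference MQ minus EQ was -0.01 ± 0.27 (adjusted p = 0.993) and did not pass the test.

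In worker-destined larvae the difference LW minus MW of chymotrypsin-2-like was 0.71 ± 0.30 (adjusted p = 0.0995), which did not pass the test. With colony as a fixed term, which compares libraries within colonies, it was 0.84 ± 0.22 (adjusted p = 0.0250) and passed. It also passed without LW1 (0.91, adjusted p = 0.0408). Leaving out 1 library gave 0.23 to 1.19. The lower end was without MW2 and the upper without MW3, each of which left 1 MW library. The size of the difference thus depended on which MW library was kept. MW minus EW was 0.37 ± 0.30 (adjusted p = 0.622).

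The difference between late castes is given as a description with no test, because the study chose chymotrypsin-2-like for it in these libraries. LQ minus LW was 3.23 ± 0.27 (SE), a 9.38-fold difference, and 3 features had a larger one. From the lowest LQ to the highest LW library the log2 ratio was 2.64. The mid-stage values overlapped (MQ minus MW -0.10 ± 0.30, adjusted p = 0.875), and the late caste difference was 3.33 ± 0.40 above the mid one. Ordered by mean, the levels ran EW 378 ± 26.5 (SD), EQ 462 ± 48.3, MQ 476 ± 151, MW 523 ± 246, LW 843 ± 233 and LQ 7913 ± 943. Among neighbours in this order, EQ and MQ, MQ and MW, and MW and LW overlapped, EQ lay just above EW, and LQ stood clear of LW.

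Some marker genes of other tissues changed between MQ and LQ. The amounts of these tissues were not measured, and their part in the rise of chymotrypsin-2-like was not tested. Of all features, 39.1% passed the test in this comparison, in either direction. The summed abundance of 8 muscle markers was 3131 to 4263 in MQ and 2046 to 2397 in LQ, and 2 of them, alpha-actinin and troponin C, fell. The summed abundance of 3 cuticle markers was 771 to 942 in MQ and 239 to 343 in LQ, where 1 of the 3 fell, and the single fat body marker, hexamerin, fell by 1.26 on the log2 scale. The 7 neuron markers summed to 407 to 432 in MQ and 386 to 434 in LQ, where syntaxin-1A and acetylcholinesterase-like rose and neurexin-4 fell. These sums lay lower in LQ for muscle and cuticle and overlapped for neurons, and 1 cuticle marker was listed at 0 in at least 1 library. Between the late castes the sums overlapped for muscle (LQ 2046 to 2397, LW 1659 to 2842), cuticle (LW 267 to 1114), hexamerin (LQ 2143 to 4938, LW 3384 to 4626) and neurons (LW 349 to 405). Of these markers myophilin, a muscle gene, was higher in LQ than in LW (0.38 ± 0.09, adjusted p = 0.0401). Between LQ and LW 4.55% of all features passed the test in either direction.

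The features whose pattern was most like chymotrypsin-2-like over the 17 libraries also peaked in LQ. This follows from ranking features by likeness to a gene that stands far highest in LQ, so it is not a separate result. Likeness was Pearson's r on log2(abundance + 20) among features with a mean of at least 20, and libraries of 1 phenotype share their stage and colonies, so r is a description. Unnamed features on 3 other sequences led with r of 0.978, 0.969 and 0.965. The first of them averaged 51.3 in MQ, 415 in LQ and 79.8 in LW, and the second 17.4, 651 and 77.6. Among 264 named features the nearest was cytochrome P450 6k1-like (r = 0.937), a member of a family of oxidising enzymes, which was listed at 0 in all EQ and EW libraries and averaged 0.657 in MQ, 140 in LQ and 7.43 in LW. RING finger protein 11 (r = 0.935) and serine/threonine-protein kinase 32A (r = 0.923) followed, with LQ means of 1651 and 82.6 and LW means of 1162 and 42.7.

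Chymotrypsin-2-like lay inside a much longer annotated feature of 243731 bp (NC_015767.1:10428321-10672051), which also enclosed 4 other features. Of all features, 4.08% lay inside another one, against 2 of the 5 protease genes. The authors' counts took no stated account of such overlaps, so a read in chymotrypsin-2-like could also count for the enclosing feature. Abundance times span of chymotrypsin-2-like was 2.76% to 4.43% of that of the enclosing feature in MQ and 9.59% to 11.9% in LQ. Together with the 4 other enclosed features it was 123% to 139% in MQ, 76.7% to 108% in LQ and 119% to 141% in LW. If lengths are the spans, the enclosing value was of the size of the features nested in it. Its differences below were not separated from theirs. The enclosing feature rose from a mean of 165 in MQ to 922 in LQ (2.35 ± 0.22, adjusted p = 5.76e-06), and LQ was above LW (mean 314) by 1.51 ± 0.22 (adjusted p = 0.00183).

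All 4 other enclosed features rose between MQ and LQ, by 0.84 to 2.12 on the log2 scale, against 20.5% of all features that rose in this comparison. None overlapped chymotrypsin-2-like. The most abundant, at 10652718-10655135, rose from a mean of 9839 to 42939 (2.12 ± 0.27, adjusted p = 6.91e-05), and the one at 10646678-10649426 from 8860 to 25733 (1.55 ± 0.25, adjusted p = 3.98e-04). The features at 10583581-10586811 and 10515163-10518440 rose by 1.08 ± 0.20 and 0.84 ± 0.14. LQ was also above LW by the test for 2 of these 4, against 4.55% of all features that passed in either direction. For these, the last 2 named, LQ minus LW was 0.88 ± 0.20 (adjusted p = 0.0260) and 0.70 ± 0.14 (adjusted p = 0.0136). For the 2 more abundant ones LQ minus LW was 0.97 ± 0.27 (adjusted p = 0.0596) and 0.85 ± 0.25 (adjusted p = 0.0728), which did not pass. Within the span chymotrypsin-2-like had the largest difference in both comparisons. The study chose it as higher in LQ than in LW in these libraries, so its first place is a description only. The other features moved in the same direction.

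**Figure D2:**
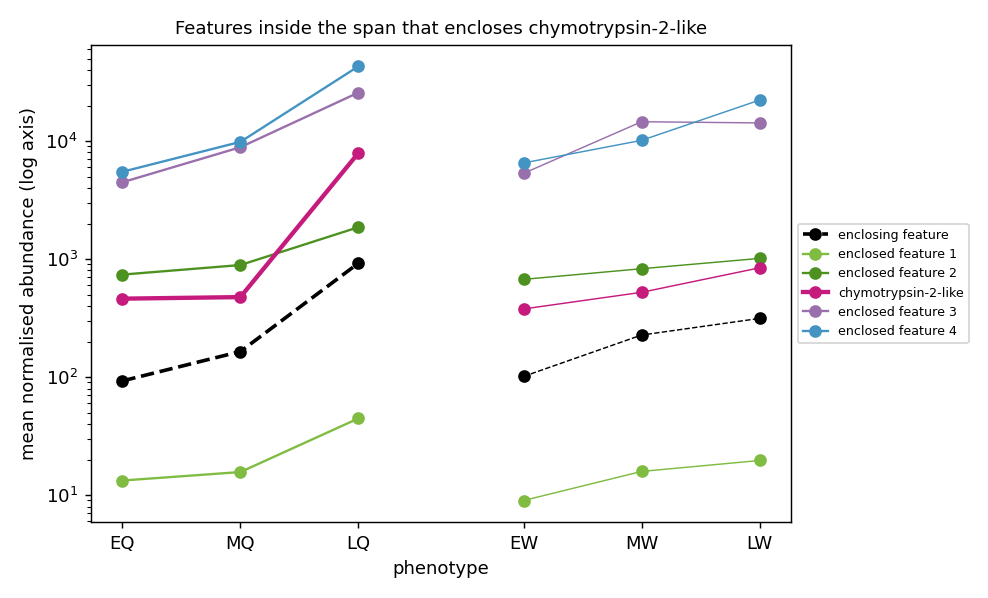
Mean normalised abundance (log axis) of chymotrypsin-2-like, of the feature that encloses it and of the 4 other enclosed features, numbered by position, over the stages of queen-destined (left, thick lines) and worker-destined larvae (right, thin lines). All 6 lines climb from MQ to LQ, chymotrypsin-2-like most steeply, from a mean of 476 to 7913.

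Chymotrypsin-1-like and trypsin 3A1-like, both endopeptidases, were among the most abundant features of every library and did not pass the test in any comparison. Chymotrypsin-1-like measured 39779, 53333 and 41224 in EQ1 to EQ3, 24661, 62678 and 26112 in MQ1, MQ2 and MQ4, and 26112, 65327 and 30921 in LQ1, LQ2 and LQ4. In the worker-destined libraries it measured 30289, 29399 and 36772 in EW1 to EW3, 18678 and 27415 in MW2 and MW3, and 22679, 35528 and 20611 in LW1 to LW3. It ranked from 18 to 66 among the features, and the library numbered 2 was the highest of each queen-destined phenotype.

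Trypsin 3A1-like measured 43341, 62678 and 49992 in EQ1 to EQ3, 20611, 60111 and 22679 in MQ1, MQ2 and MQ4, and 35528, 53333 and 36772 in LQ1, LQ2 and LQ4. In the worker-destined libraries it measured 33016, 30921 and 26112 in EW1 to EW3, 30289 and 53333 in MW2 and MW3, and 22061, 37958 and 26511 in LW1 to LW3. It ranked from 19 to 59, and the colony of the libraries numbered 2 was again the highest at each queen-destined stage. Across both genes this held in 6 of 6 pairs of gene and stage. At these ranks quantile normalisation assigns nearly fixed values, so 20 of the 34 values were shared exactly between the genes or libraries and differences between libraries are differences in rank.

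The genes followed each other over the libraries, with Pearson's r = 0.758 and Spearman's rho = 0.758 over 17 libraries and r = 0.874 for deviations from the phenotype means. These correlations are descriptions, since several libraries share a colony and MQ2, LQ2 and EQ2 set the upper end. Trypsin 3A1-like was above chymotrypsin-1-like in 11 of 17 libraries, and they lay furthest apart in MW3, where trypsin 3A1-like was at 53333 and chymotrypsin-1-like at 27415.

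**Figure D3:**
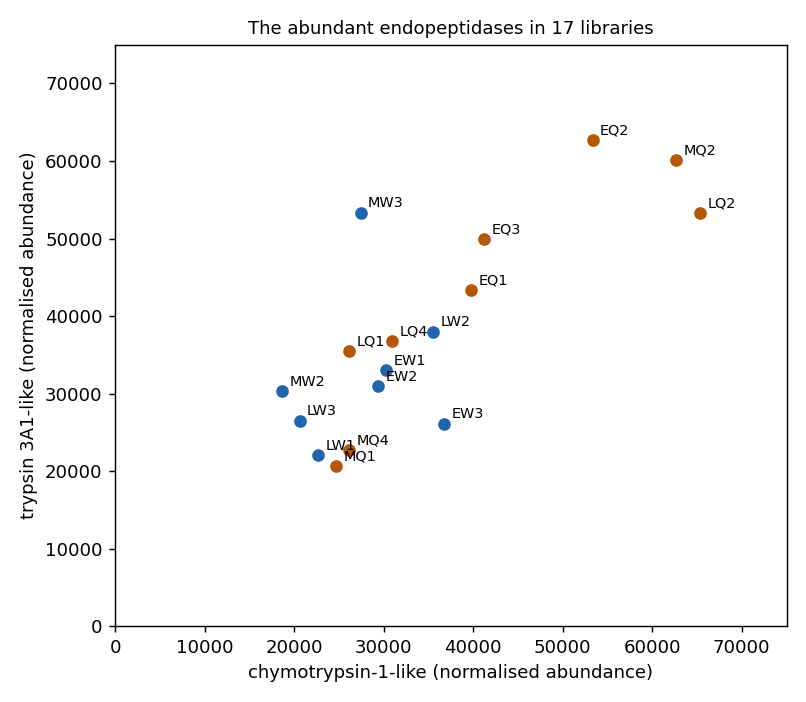
Normalised abundance of chymotrypsin-1-like (x axis) and trypsin 3A1-like (y axis) in each of the 17 libraries, orange queen-destined and blue worker-destined. EQ2, MQ2 and LQ2, which came from 1 colony, lie at the upper right, and MQ1 and MQ4 of the other colonies at the lower left.

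For chymotrypsin-1-like MQ minus MW was 0.60 ± 0.45 (SE, adjusted p = 0.443) and LQ minus LW 0.56 ± 0.40 (adjusted p = 0.453). For trypsin 3A1-like the same differences were -0.40 ± 0.43 (adjusted p = 0.613) and 0.55 ± 0.39 (adjusted p = 0.440). With errors of this size, a caste difference of 1.5-fold in either direction could not be told from the spread between libraries. In queen-destined larvae the stage comparisons of trypsin 3A1-like depended on MQ2. MQ minus EQ was -0.76 ± 0.39 (adjusted p = 0.196) with all libraries, -1.25 (adjusted p = 0.0160) without MQ2 and -1.04 ± 0.33 (adjusted p = 0.0316) with weights for each library. The gene was named from a sheet in which most features are higher in EQ. These p values thus rest on values that helped to choose it and are not independent evidence of a fall. LQ minus MQ was 0.44 ± 0.39 (adjusted p = 0.398) with all libraries and 0.93 (adjusted p = 0.0367) without MQ2.

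Trypsin 3A1-like also lay inside a longer feature, that of glutamate-gated chloride channel alpha, a receptor of nerve and muscle cells (88055 bp, NC_015776.1:2792021-2880075). Abundance times span of trypsin 3A1-like was 70.8% to 122% of that of the channel in EQ and EW, 67.7% to 92.5% in MQ and MW, and 23.6% to 42.8% in LQ and LW. If lengths are the spans, the channel's value at the early and mid stages was of the size of the protease nested in it. With shares over 100%, these products do not add up exactly, and the reason was not tested. At the late stage another enclosed feature at 2798518-2799950 rose from a mean of 1124 in MQ to 41637 in LQ (5.29 ± 0.57, adjusted p = 1.74e-05), 2551 bp from trypsin 3A1-like. The value listed for the channel rose from 846 to 2812 (1.80 ± 0.33, adjusted p = 9.13e-04). Abundance times span of the enclosed features together was 69.2% to 94.4% of that of the channel in MQ and 42.7% to 62.1% in LQ. A change of the channel gene itself was not separated from theirs.

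Among named features, dipeptidase 1-like (LOC100645356), which splits dipeptides, was near both abundant endopeptidases (r = 0.724 with chymotrypsin-1-like and 0.677 with trypsin 3A1-like, 17 libraries). The closest named feature to trypsin 3A1-like was facilitated trehalose transporter Tret1, a sugar transporter, at r = 0.750. A zinc finger protein (LOC100650728) was closest to chymotrypsin-1-like, at r = 0.792.

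Carboxypeptidase B-like was scarce, and in queen-destined larvae it was lowest at the mid stage. Its abundance was 30.4, 24.7 and 45.3 in EQ1 to EQ3, 7.61, 16.0 and 14.8 in MQ1, MQ2 and MQ4, and 25.6, 47.9 and 29.1 in LQ1, LQ2 and LQ4. The MQ libraries lay below all EQ and all LQ libraries. In worker-destined larvae it was 21.3, 20.1 and 17.6 in EW1 to EW3, 14.6 and 17.7 in MW2 and MW3, and 23.9, 34.0 and 24.2 in LW1 to LW3. Here the mid and early stages overlapped, and LW lay above MW.

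Carboxypeptidase B-like rose by 0.71 ± 0.16 (SE) on the log2(abundance + 20) scale between MQ and LQ (adjusted p = 0.00414). MQ minus EQ was -0.70 ± 0.16 (adjusted p = 0.0124), but the gene was named from a sheet in which most features are higher in EQ, so this p rests on values that helped to choose it and is not independent evidence of a fall. The levels were near the 20 added before taking logs, which shrinks these values, and the plain means differed more, 33.5 in EQ, 12.8 in MQ and 34.2 in LQ. This difference did not pass the test with colony as a fixed term (-0.54 ± 0.18, adjusted p = 0.124), without EQ3 (-0.54, adjusted p = 0.0665) or when only EQ and MQ libraries were fitted (adjusted p = 0.0557). The rise passed in every alternative, with adjusted p from 0.00237 to 0.0318. LW minus MW was 0.39 ± 0.18 (adjusted p = 0.141), and the caste differences were -0.15 ± 0.18 (adjusted p = 0.669) at the mid and 0.18 ± 0.16 (adjusted p = 0.564) at the late stage.

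Just 368 bp from carboxypeptidase B-like, an unnamed feature of the table (NC_015774.1:2585874-2590380) was abundant in all phenotypes, with means from 36108 in MQ to 56789 in LQ. Its LQ minus MQ difference was 0.84 (adjusted p = 0.0998). The named feature most like carboxypeptidase B-like was serine/threonine-protein kinase KIPK (r = 0.834, 17 libraries), which averaged 22.1 in MQ and 32.5 in LQ.

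Aminopeptidase N, which had the longest span of the genes, was low in abundance per length, from 27.3 to 58.8. It measured 58.8, 42.4 and 47.9 in EQ1 to EQ3, 39.9, 40.5 and 39.4 in MQ1, MQ2 and MQ4, and 51.5, 41.2 and 46.2 in LQ1, LQ2 and LQ4. In worker-destined larvae it measured 41.7, 41.9 and 38.0 in EW1 to EW3, 37.7 and 53.1 in MW2 and MW3, and 39.8, 27.3 and 28.8 in LW1 to LW3. The LQ libraries lay above the LW libraries without overlap, as did 13.3% of all features in this direction.

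The difference LQ minus LW of aminopeptidase N was 0.36 ± 0.12 (SE, adjusted p = 0.101), and LW minus MW was -0.33 ± 0.13 (adjusted p = 0.0827), so neither passed the test. With weights for each library LQ minus LW was 0.49 ± 0.10 (adjusted p = 0.00754). LW minus MW was -0.39 ± 0.13 (adjusted p = 0.0588) with colony as a fixed term, which did not pass, and -0.43 (adjusted p = 0.0204) without LW1. Leaving out 1 library gave -0.50 to -0.16, at the ends without MW2 and without MW3, each of which left 1 MW library. LW minus MW passed with replicate number as a fixed term (-0.38 ± 0.12, adjusted p = 0.0363), where libraries of unrelated colonies share a number across the castes. The most similar named feature was A disintegrin and metalloproteinase with thrombospondin motifs 14-like, at r = 0.568, a weaker likeness than those of the other proteases.

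Counted over the genes, few comparisons reached the threshold, and the counts are read against the share of all features that did. Between MQ and LQ 2 of 5 passed, both upward, against 39.1% of all features in either direction. Of these 2, chymotrypsin-2-like was chosen by the study as higher in LQ, in the same libraries, so nothing is read from its part in the count. The other was carboxypeptidase B-like. Between EQ and MQ 1 of 5 passed, against 17.8%; the genes were named through their EQ and EW values and all features were not, so nothing is read from this count or from that of MW minus EW. For MW minus EW (3.66%), LW minus MW (25.1%) and MQ minus MW (8.04%) limma called 0 of 5, and 0, 2 and 0 of them had an unadjusted p under 0.05. For LQ minus LW (4.55%) and for the late minus mid caste difference (2.47%), where chymotrypsin-2-like was left out, limma called 0 of 4, and 1 of 4 had an unadjusted p under 0.05 in each, aminopeptidase N both times. The shares are those at the adjusted threshold. No share of all features at an unadjusted p under 0.05 is given, so nothing is read from the unadjusted counts here or below. With 4 or 5 genes, none of these counts sets the proteases apart from other features.

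**Figure D4:**
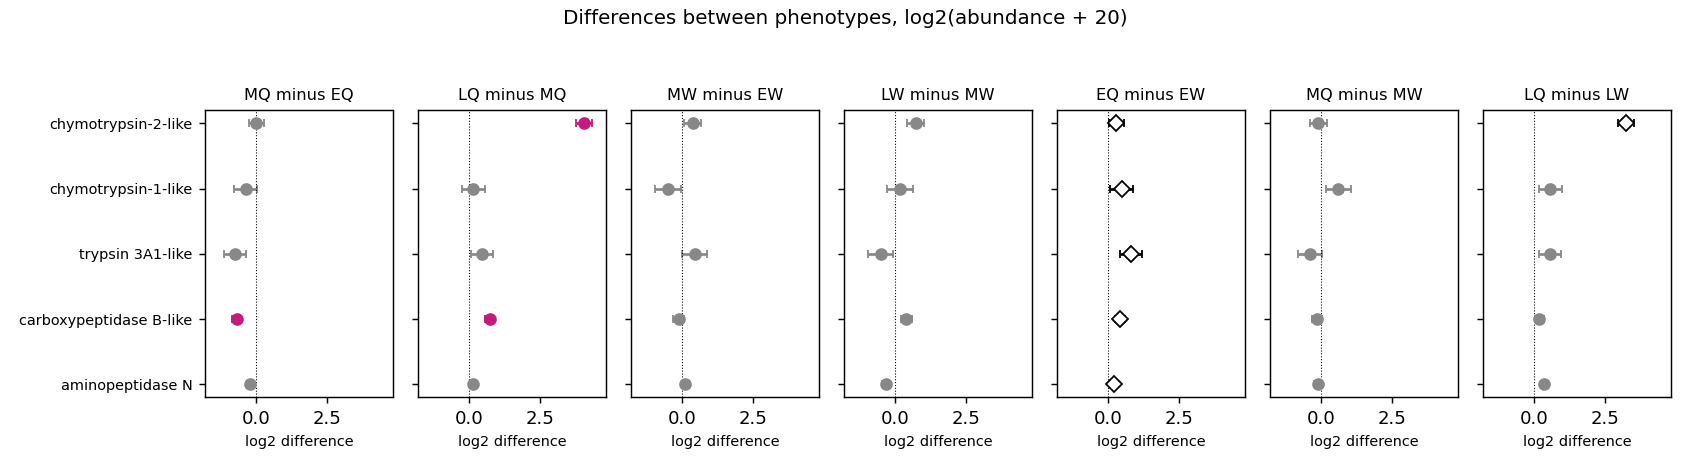
Difference between phenotypes on the log2(abundance + 20) scale for each gene, with bars of 1 SE from the limma fit; pink circles passed the test at an adjusted p of 0.05, grey circles did not, and open diamonds were not tested. LQ minus MQ and LQ minus LW of chymotrypsin-2-like, at 4.04 and 3.23, stand apart from the rest.

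At the early stage the names themselves came from a sheet ordered by the difference between EQ and EW, with 815 of its 1054 readable lines higher in EQ, so the early caste difference was not tested for any of the genes. All 5 had EQ libraries above all EW libraries, as did 5.51% of all features. The plain means were 1.73-fold higher in EQ for trypsin 3A1-like, 1.70-fold for carboxypeptidase B-like, 1.39-fold for chymotrypsin-1-like, 1.23-fold for aminopeptidase N and 1.22-fold for chymotrypsin-2-like.

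Of 10 other peptidases named in the same sheet, which leans towards features higher in EQ, 2 rose and 1 fell between MQ and LQ, against 39.1% of all features called in either direction, with a median difference of 0.09 against -0.01 over all features. Those that rose, protein rhomboid (LOC100650070) and neprilysin-21, averaged 2.09 and 1.87 in LQ, and disintegrin and metalloproteinase domain-containing protein 10-like fell by 0.17. Between MQ and MW 2 of 10 were higher in MQ, against 8.04% of all features called: ubiquitin carboxyl-terminal hydrolase 20 (0.35 ± 0.10, adjusted p = 0.0427) and peroxisomal leader peptide-processing protease (0.39 ± 0.11, adjusted p = 0.0406). Between LQ and LW limma called 0 of the 10, and 3 had an unadjusted p under 0.05. The nearest were dipeptidase 1-like (LOC100645356), at 0.57 ± 0.15 (adjusted p = 0.0550), and serine protease HTRA2, at 0.38 ± 0.10 (adjusted p = 0.0569). Most of these peptidases act inside cells or at membranes.

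Nutrient transporters changed in both directions. Of 9, 3 rose and 3 fell between MQ and LQ, where 39.1% of all features were called. Monocarboxylate transporter 12-B rose by 1.76 ± 0.18 (adjusted p = 1.12e-05) and facilitated trehalose transporter Tret1-like by 1.48 ± 0.21 (adjusted p = 1.47e-04), whereas proton-coupled amino acid transporter 4 fell by 1.25 (SE 0.18, adjusted p = 1.72e-04). In worker-destined larvae 2 of 9 rose and 2 fell between MW and LW, where 25.1% of all features were called, and between LQ and LW limma called 0 of 9, with 1 at an unadjusted p under 0.05.

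Of 4 other enzymes that break down food or cell material, sialidase-like and arylsulfatase B-like rose and phospholipase A1 fell between MQ and LQ, 3 of 4 against 39.1% of all features called. Sialidase-like, which removes sialic acids from sugar chains, averaged 1.26 in MQ, 51.5 in LQ and 29.8 in LW, and rose by 1.73 ± 0.12 (adjusted p = 5.19e-07). It was the 1 of 4 above LW in LQ, against 4.55% of all features called (0.51 ± 0.12, adjusted p = 0.0259). Phospholipase A1, which cleaves phospholipids, fell from a mean of 104 in MQ to 12.2 in LQ (adjusted p = 0.00906).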

How the data were processed

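The authors resampled libraries to 1 size, aligned reads to Bter_1.0 with PatMaN, counted reads per gene, divided by gene length and applied quantile normalisation. These normalised abundances are the signal deposited; read counts were not used here, so precision rests on the spread between libraries. Libraries MQ3, LQ3 and MW1 were not analysed here. Names came from the readable 1054 lines of 1 supplementary sheet, and 4 of 5 gene symbols were found in RefSeq's table for iyBomTerr1.2.

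limma 3.58.1 (R 4.3.3) was fitted to log2(abundance + 20) of 14817 features in 17 libraries as 6 phenotype means, letting the prior spread follow intensity (11 residual and 2.35 prior degrees of freedom). Benjamini-Hochberg adjustment ran over all features, and an adjusted p under 0.05 passed. The method was tested on simulated data. The members and lists were chosen with earlier results of these data known. Named genes were all members, the 3 most similar features and named features of each, its neighbours, and list features past the test.

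Same-numbered libraries of a caste shared a colony, as the paper's sample list gives. Their deviations from phenotype means correlated with a median r of 0.27 (14 pairs, -0.25 to 0.49), against -0.03 for 82 other pairs and -0.01 for 12 same-numbered pairs of other castes, which share no colony. Alternatives were offsets of 1 and 50, a mean of at least 20, replicate or colony blocks, colony as a random block, no trend, library weights, renormalisation, only the libraries compared, and leaving out each library.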

Additional observations from a re-analysis of the deposited data

How the results depend on the processing

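The rise of chymotrypsin-2-like between MQ and LQ and that of carboxypeptidase B-like held in every alternative run, and LQ minus LW of chymotrypsin-2-like stayed between 3.03 and 3.43. The number of genes called moved, and the cause was not tested. With weights for each library it was 1 of 4 for LQ minus LW, 2 of 5 for MQ minus EQ, 3 of 5 for LW minus MW and 1 of 4 for the late minus mid caste difference. Over all 14817 features, library weights called 2680, 4311, 6887 and 1813 in these comparisons. The main fit called 674, 2641, 3720 and 366. Calls thus rose over the whole table, and nothing is read from the higher protease counts. When only the libraries compared were fitted, 0 of 5 genes passed for MQ minus EQ, and 1445 of all features. Leaving out 1 library gave 0 to 2 for MQ minus EQ, against 1083 to 3224 of all features. For LQ minus MQ it gave 2 to 3, with 3 without MQ2, against 4675 to 6170 of all features. With both MW libraries kept, it gave 0 to 2 for LW minus MW, against 1895 to 4940 of all features. The replicate block by colony gave 1 of 5 for LW minus MW (4159 of all features) and 0 for MQ minus EQ (821). Colony as a random block gave 1 for LW minus MW (4512). A block by the number, which pairs no libraries across castes (median r -0.01 over 12 pairs), gave 2 of 5 for LW minus MW (3917 of all features). The blocks changed no other count.

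Some differences that passed no test changed sign. With the number as replicate block chymotrypsin-2-like had MQ minus MW 0.10 and MQ minus EQ 0.042, and with library weights carboxypeptidase B-like had LQ minus LW -0.036. Leaving out 1 library gave, for MQ minus MW, -0.29 to 0.054 for aminopeptidase N, -0.58 to 0.38 for chymotrypsin-2-like and -0.89 to 0.0055 for trypsin 3A1-like. It gave -0.15 to 0.28 for chymotrypsin-2-like in MQ minus EQ and, for MW minus EW, -0.068 to 0.27 for aminopeptidase N and -0.11 to 0.85 for chymotrypsin-2-like. Chymotrypsin-1-like ranged from -0.27 to 0.56 in LQ minus MQ, -0.10 to 0.45 in LW minus MW and -0.44 to 0.39 in the late minus mid caste difference. Read counts per gene were not used here, so counting error was not computed.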
